A study of Mus musculus with 36 samples.

Results

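Fat cells store triglyceride in lipid droplets and release it again by lipolysis. The 6 genes described here are the core of that pathway. They are the adipose triglyceride lipase gene Pnpla2, the hormone-sensitive lipase gene Lipe, the monoglyceride lipase gene Mgll, the lipase co-activator gene Abhd5, the lipase inhibitor gene G0s2 and the fat-cell beta-adrenergic receptor gene Adrb3. They were chosen by name, through the mouse Ensembl identifiers of the deposited expression table, and all 6 were among its 52505 genes. In the 12 RNA-seq libraries, Pnpla2, Lipe and Abhd5 were expressed in every group and G0s2 passed 3 reads in WT day 2 libraries alone. Mgll and Adrb3 stayed at 1.26 FPKM or less throughout, where FPKM counts reads per length of the gene and depth of the library.

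The cells were 3T3-L1, a mouse line of preadipocytes that turn into fat cells when given a hormone mix. The groups were Zfp217 knockout cells (labelled zfp217-/-, here KO) at day 2, wild type cells (WT) at day 2, KO cells at day 0 and WT cells at day 0, with 3 libraries each. The mix, abbreviated MDI, held the glucocorticoid DEX, isobutyl-methylxanthine (which blocks the breakdown of cyclic AMP), insulin and indometacin. All 12 libraries carry the same treatment entry, growth and MDI, so the day alone tells induced from uninduced cells. None of the groups is labelled as day 2 without the mix, so its effect and that of time in culture cannot be told apart. Below, the mix is called the cocktail, day 0 is taken as before it, and the response to it means the change from day 0 to day 2. The labels give neither the KO allele nor the number of KO clones, and they do not tell separate cultures from repeat libraries of 1 culture. The p-values below therefore measure the spread between these libraries, which may be technical. The series also has 24 MeRIP and input samples, not analysed here.

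In lipolysis, the enzyme made from Pnpla2 takes a fatty acid off triglyceride, the product of Lipe takes the next off diglyceride, and that of Mgll frees the last from glycerol. ABHD5 switches the first enzyme on once it is let go by the droplet coat protein perilipin 1, and G0S2 binds the same enzyme and blocks it. In mature fat cells catecholamines act on beta-adrenergic receptors such as that of Adrb3. They raise cyclic AMP and activate protein kinase A, which phosphorylates hormone-sensitive lipase and perilipin 1, and insulin opposes this.

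Pnpla2 (ENSMUSG00000025509) lies on chromosome 7 from 141455188 to 141460743, and Lipe (ENSMUSG00000003123) on the same chromosome from 25379527 to 25398486. Abhd5 (ENSMUSG00000032540) is on chromosome 9 from 122351616 to 122381524 and G0s2 (ENSMUSG00000009633) on chromosome 1 from 193272160 to 193273188. Mgll (ENSMUSG00000033174) is on chromosome 6 from 88724412 to 88828360 and Adrb3 (ENSMUSG00000031489) on chromosome 8 from 27225776 to 27230845. All positions are of RefSeq's GRCm38.p6, the assembly behind the build mm10 that the submitters' processing notes name. Lipe lies within the long noncoding gene 4732471J01Rik, and part of Mgll and of Adrb3 overlaps the noncoding genes Gm26588 and Gm45470. Whether reads were counted by strand is not given in the sources used here, so reads of such pairs cannot be told apart. 4732471J01Rik itself was low, at 2.21 FPKM in KO day 2, 4.63 in WT day 2, 2.7 in KO day 0 and 0.66 in WT day 0 libraries.

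The 250 bases before the start are shown for the 4 members above the expression filter, which G0s2 passed through WT day 2 libraries alone. They are from RefSeq, 5′ to 3′ on the gene's strand, and capitals mark every match to a motif searched on both strands. The motifs were the nuclear receptor half-site AGGTCA, the full PPAR element (a direct repeat of AGGTCA with a free base between the copies), the C/EBP site TTGCNNAA, the cyclic AMP half-site TGACG, the E-box CACGTG, the GC box GGGCGG and the TATA box TATAAA. The windows are chr7:141454938-141455187 on the plus strand for Pnpla2, chr7:25395988-25396237 on the minus strand for Lipe, chr9:122351366-122351615 on the plus strand for Abhd5 and chr1:193273189-193273438 on the minus strand for G0s2. The Lipe window precedes an annotated start inside the gene span given above, not the outermost 5′ end of that span.
Pnpla2: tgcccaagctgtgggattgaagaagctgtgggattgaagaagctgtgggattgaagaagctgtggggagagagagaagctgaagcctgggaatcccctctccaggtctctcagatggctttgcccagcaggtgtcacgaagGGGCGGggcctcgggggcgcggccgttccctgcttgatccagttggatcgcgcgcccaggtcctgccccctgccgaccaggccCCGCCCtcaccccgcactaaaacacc
Lipe: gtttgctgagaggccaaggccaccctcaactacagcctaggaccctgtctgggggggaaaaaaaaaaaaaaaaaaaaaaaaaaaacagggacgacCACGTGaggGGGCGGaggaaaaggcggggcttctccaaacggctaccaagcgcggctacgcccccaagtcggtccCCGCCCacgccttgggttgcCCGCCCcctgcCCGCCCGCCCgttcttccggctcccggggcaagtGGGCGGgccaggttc
Abhd5: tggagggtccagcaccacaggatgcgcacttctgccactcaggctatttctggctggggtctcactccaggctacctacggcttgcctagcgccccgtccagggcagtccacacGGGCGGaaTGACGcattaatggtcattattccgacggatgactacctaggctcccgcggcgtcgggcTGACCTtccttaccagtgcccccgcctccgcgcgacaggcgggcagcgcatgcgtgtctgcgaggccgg
G0s2: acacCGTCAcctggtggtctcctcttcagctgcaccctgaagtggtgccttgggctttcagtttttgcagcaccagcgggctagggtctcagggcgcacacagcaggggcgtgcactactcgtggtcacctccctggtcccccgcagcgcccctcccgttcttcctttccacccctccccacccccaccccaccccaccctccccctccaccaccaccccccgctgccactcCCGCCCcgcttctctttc

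Pnpla2 held 2 GC boxes, 109 and 26 bases before its start. Lipe held an E-box 155 bases before its start and 6 GC boxes, of which a pair 49 and 45 bases before it overlap. Abhd5 held a nuclear receptor half-site 69 bases, a cyclic AMP half-site 128 bases and a GC box 136 bases before its start, and G0s2 held a cyclic AMP half-site 246 bases and a GC box 18 bases before its own. The GC box was thus in all 4 windows, and it was in 32.7% of the 32851 promoter windows of this length in the table. The half-sites were in 14% (nuclear receptor) and 17.8% (cyclic AMP) of them, and the E-box in 6.02%. None of the 4 windows held the full PPAR element (0.0335% of all windows), the C/EBP site (9.56%) or the TATA box (12.4%), which says only that these letters are not in these bases. A second Lipe start has a window with no match. Of the windows of the 2 Mgll starts, 1 holds an E-box and the other a GC box, and Adrb3 is not among the windows used.

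Each library held 18073746 to 23116567 reads assigned to genes, as recovered from the FPKM values. The labelled target, Zfp217, was not lower in the libraries labelled KO: it had 22.6 ± 0.858 FPKM in KO and 15.1 ± 0.369 in WT at day 2, and 26.0 ± 0.883 in KO and 22 ± 0.279 in WT at day 0 (SD, n = 3 each). The total message of a gene need not fall when an edit breaks its protein, and KO below means the libraries with that label. Replicate 3 of WT day 0 stood apart in some genes, with 886 FPKM of the chaperone gene Hsp90aa1 where the lowest library of its group had 27.2 and 264 FPKM of mt-Rnr1 where the lowest had 5.87. For the lipolysis genes it lay beside the other WT day 0 libraries, and no call on a member changed without it. The summed FPKM of 10 adipocyte markers was 331 to 344 in KO and 8177 to 8366 in WT at day 2, and 190 to 201 in KO and 56.1 to 60.4 in WT at day 0, with Lep, the leptin gene, at 0 in every library. At day 0 nearly all of that sum was Lpl, at 190 in KO and 55.9 in WT libraries, and 8 of the 9 tested markers were not called there. That of 9 preadipocyte markers was 822 to 831 in KO and 144 to 147 in WT at day 2, and 1768 to 1812 in KO and 1121 to 1162 in WT at day 0. At day 0 the 8 tested preadipocyte markers were split, with 4 called higher in KO and 3 lower, beside 38.3% and 44.2% of all tested genes. Dlk1 alone had 880 FPKM in KO and 416 in WT there. The 3 called lower were Cd34, Gli1 and Cd24a, of which Cd34 and Gli1 passed the filter through WT day 0 libraries alone. The 6 endothelial markers summed to at most 1.17 FPKM and the 6 muscle markers to at most 2.06. The sum of 8 macrophage markers was 12.2 to 13.4 FPKM in KO and 6.22 to 7.82 in WT at day 2, and 26.8 to 27.9 in KO and 12.1 to 13.6 in WT at day 0. Lyz2 and Cd14 were the 2 of 3 tested macrophage markers called higher in KO at both days, with Lyz2, the lysozyme gene, at 1.65 FPKM in KO and 0.0603 in WT at day 2, and 14.8 in KO and 1.5 in WT at day 0. Lyz2 passed the filter through KO day 0 libraries alone, which favours a higher call there. The part of the macrophage markers in the results below was not tested. The 8 brown fat markers summed to 2.84 to 3.76 FPKM in KO and 14.3 to 16.2 in WT cells at day 2, with Ucp1 at 0 in every library. In such bulk libraries, fewer fat cells and less of a message in each cell cannot be told apart.

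At day 2, the message of every lipolysis gene was lower in KO than in WT cells. The inhibitor gene G0s2 differed by far the most and was all but missing in KO cells. Lipe was 11.5-fold lower, and Pnpla2 and Abhd5 were 2.19-fold and 1.96-fold lower, so the lipase of the pathway's opening step and its co-activator differed least.

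Pnpla2 had 417, 421 and 419 FPKM in the 3 KO day 2 libraries, against 909, 928 and 919 FPKM in the WT day 2 libraries. The groups are far apart and each is tight, and 82.2% of all tested genes likewise showed no overlap between KO and WT libraries at day 2. On the log2(FPKM + 1) scale used for all tests the change was -1.13 with an SE of 0.04 (limma, adjusted p = 8.19e-11). Adjusted p-values are by the Benjamini-Hochberg method over the 12961 genes with a mean of 1 FPKM or more, and a gene is called under 0.05. Pnpla2 was nevertheless an abundant message in KO cells, ranking 202 of 30916 expressed genes by mean FPKM there and 97 in WT cells.

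Lipe had 30.6, 29.8 and 28.7 FPKM in KO day 2 libraries, against 340, 347 and 333 FPKM in WT day 2 libraries. The KO values are all far below the lowest WT value. The change was -3.48 (SE 0.04, adjusted p = 4.24e-15), and Lipe ranked 4038 of 30916 genes in KO cells and 316 in WT cells.

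Abhd5 had 151, 152 and 154 FPKM in KO day 2 libraries, against 299, 302 and 293 FPKM in WT day 2 libraries. The groups did not overlap, and each held together closely. The change was -0.96 (SE 0.04, adjusted p = 1.51e-10), with ranks of 691 in KO and 371 in WT cells.

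G0s2 was carried by 3, 2 and 1 reads in the KO day 2 libraries, against 3602, 3171 and 3206 reads in the WT day 2 libraries. In FPKM this was 0.11 ± 0.05 in KO and 179 ± 0.546 in WT cells (SD, n = 3 each). The ratio of reads, scaled to library size, was 1613-fold lower in KO (exact 95% interval 741 to 4386, counting error only). The fitted change of -7.34 (SE 0.06, adjusted p = 4.23e-16) is much smaller than that ratio because a pseudocount of 1 FPKM caps the change of a gene near 0.

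Mgll, whose product acts on monoglyceride, was low throughout: it had 2, 3 and 0 reads in KO day 2 libraries, against 52, 41 and 37 reads in WT day 2 libraries. These came to 0.046 ± 0.0442 FPKM in KO and 1.13 ± 0.126 FPKM in WT cells (SD, n = 3 each). The groups did not overlap, and the scaled read ratio was 25.2-fold lower in KO (exact 95% interval 10.5 to 78.7). Its mean over all libraries was under the 1 FPKM needed for the fit, so it was tested in a fit without that filter, where the change was -1.02 (SE 0.07, adjusted p = 4.53e-07) and 42% of 30916 genes were called.

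Adrb3 was barely read: 0, 2 and 1 reads in KO day 2 libraries, against 4, 7 and 4 reads in WT day 2 libraries. The difference rests on 3 reads in KO and 15 in WT libraries. In the fit without the filter the change was -0.17 (SE 0.04, adjusted p = 0.00312), and the scaled read ratio was 4.85-fold lower in KO with an exact 95% interval of 1.37 to 26.1. Fitted to the day 2 libraries alone, Adrb3 missed the threshold (adjusted p = 0.0531). Adrb3 lies on chromosome 8, whose 675 tested genes had a median change of 0.40 at day 2 against 0.00 for all genes. Mgll lies on chromosome 6, where the median of 597 genes was -0.31, and the chromosomes of the other members had medians of 0.01 to 0.18.

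Of the 4 members that passed the filter, all 4 were called lower in KO cells at day 2, with a median change of -2.3 where that of all 12961 tested genes was 0.00. In that comparison 81.4% of tested genes were called in either direction and 40.6% called lower, so a call by itself sets a gene little apart and the sizes say more. G0s2 entered the fit through its WT day 2 libraries alone and so had to differ.

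**Figure D1:**
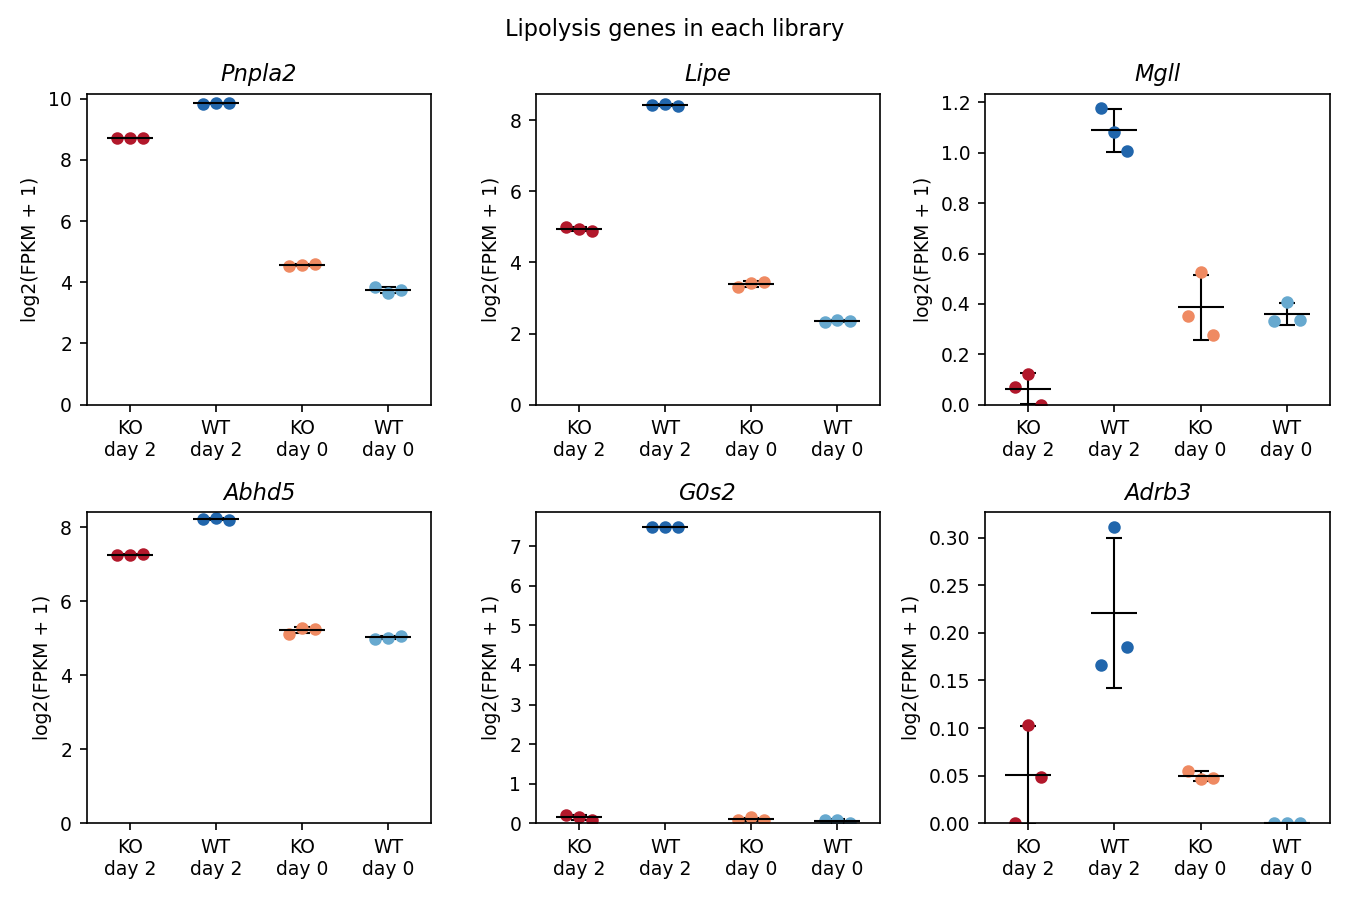
Level of each lipolysis gene as log2(FPKM + 1) in the 12 libraries, with KO and WT cells at day 2 and KO and WT cells at day 0 along the horizontal axis. Points are libraries, the wide bar is the mean and the error bar the SD (n = 3), and vertical scales differ between panels. Pnpla2, Lipe and Abhd5 sit higher in KO than WT at day 0 and lower at day 2, while the 3 WT day 2 points of G0s2 stand alone.

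Before the cocktail the order was the other way round for 3 of the members. Lipe and Pnpla2 were 2.32-fold and 1.83-fold higher in KO than in WT cells, and Abhd5 was 1.15-fold higher. These were low levels beside those of day 2.

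Pnpla2 had 22.2, 22.5 and 23.1 FPKM in KO day 0 libraries, against 13.4, 11.5 and 12.3 FPKM in WT day 0 libraries. The groups did not overlap, as in 84% of tested genes at day 0, and the change was 0.82 (SE 0.04, adjusted p = 1.75e-09). Lipe had 8.92, 9.62 and 9.96 FPKM in KO day 0 libraries, against 4.01, 4.16 and 4.11 FPKM in WT day 0 libraries. Its lowest KO value was above 2 times its highest WT value, and the change was 1.04 (SE 0.04, adjusted p = 1.36e-10).

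Abhd5, the member with the highest level before induction, had 33.7, 37.4 and 37.1 FPKM in KO day 0 libraries, against 30.7, 31.2 and 32.4 FPKM in WT day 0 libraries. The gap between the closest libraries was smaller than the spread among KO libraries, though the change of 0.19 passed the test (SE 0.04, adjusted p = 0.000422). The genes of chromosome 9 had a median change of 0.08 at day 0.

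The remaining members were near the floor at day 0. G0s2 had 1, 2 and 1 reads in KO and 1, 1 and 0 reads in WT libraries, a difference not detectable at this depth (change 0.05, SE 0.06, adjusted p = 0.404). Mgll had 9, 17 and 8 reads in KO and 10, 12 and 10 reads in WT libraries. Its groups overlapped (change 0.03, SE 0.07, adjusted p = 0.843 without the filter), with a scaled read ratio of 1.11 and an exact 95% interval of 0.663 to 1.85. Adrb3 had a single read in each KO library and none in the 3 WT libraries, for which 3 reads is the limit that a count of 0 allows. Its change was 0.05 (SE 0.04, adjusted p = 0.336) in the fit without the filter, which called 44.8% of genes. Voom on the recovered reads, which called 45.9%, did call it (change 1.65, SE 0.53, adjusted p = 0.0219), on these 3 reads. Among the members in the fit, 3 of 4 were called higher in KO cells, with a median change of 0.51 beside -0.06 over all tested genes. In this comparison 82.4% of tested genes were called and 38.3% called higher.

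Pnpla2, Lipe and Abhd5 rose with the cocktail in both genotypes, and far more in WT cells. Pnpla2 at day 2 was 18.5-fold above day 0 in KO and 74.2-fold in WT cells. For Lipe the rise was 3.13-fold in KO and 83.1-fold in WT cells, and for Abhd5 4.22-fold in KO and 9.48-fold in WT cells. Lipe thus rose about as much as Pnpla2 in WT cells and much less in KO cells.

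On the log2 scale the rise of Pnpla2 was 4.15 in KO cells (adjusted p = 3.19e-15) and 6.11 in WT cells (adjusted p = 4.84e-17), each with an SE of 0.04. That of Lipe was 1.55 in KO cells (adjusted p = 6.48e-12) and 6.07 in WT cells (adjusted p = 4.3e-17). That of Abhd5 was 2.05 in KO cells (adjusted p = 3.42e-13) and 3.20 in WT cells (adjusted p = 2.96e-15). No day 2 library overlapped a day 0 library of the same genotype in any of these 3 genes, as in 74.8% of tested genes in KO and 82.2% in WT cells.

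G0s2 reads numbered 6 over the KO day 2 libraries, against 4 over the KO day 0 libraries, and the change of 0.05 did not pass the test (SE 0.06, adjusted p = 0.486). The scaled ratio was 1.47 with an exact 95% interval of 0.348 to 7.06, which bounds any rise in KO cells far below that in WT cells. In WT cells G0s2 had 9979 reads at day 2, against 2 at day 0, a ratio of 4924 (exact 95% interval 1363 to 40666), and the fitted change was 7.44 (SE 0.06, adjusted p = 1.5e-16).

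Mgll was the single member with opposite responses. Its reads fell to 5 over the KO day 2 libraries, against 34 over the KO day 0 libraries, a change of -0.32 (SE 0.07, adjusted p = 0.00449) and a scaled ratio of 0.144 (exact 95% interval 0.0439 to 0.369). In WT cells there were 130 reads at day 2, against 32 at day 0, a change of 0.73 (SE 0.07, adjusted p = 7.99e-06) and a ratio of 4.01 (2.71 to 6.1). Of the KO day 0 reads 17 were in replicate 2, and the lowest KO day 0 library, with 8 reads, was still above the highest KO day 2 library, with 3. Adrb3 had 3 reads over the KO day 2 libraries and 3 over the KO day 0 libraries, both at the floor. In WT cells Adrb3 had 15 reads at day 2 and none at day 0. That is 4.93-fold higher when 3 reads stand in for the day 0 group, with counting error in the 15 reads left out. The change was 0.22 (SE 0.04, adjusted p = 0.000519). The fit without the filter called 37.5% of genes in KO and 41.3% in WT cells.

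In KO cells 3 of the 4 members in the fit were called higher at day 2 and 1 was not called, with a median of 1.8 beside -0.03 over all tested genes, of which 72.7% were called and 33.9% called higher. In WT cells all 4 were called higher, with a median of 6.09 beside -0.11 over all genes, of which 80.7% were called and 34.2% called higher. G0s2 is among these 4 and, chosen by its WT day 2 level, had to be higher there.

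The difference between the responses was tested as an interaction of genotype and day. It was negative for each of the 4 members in the fit, at -1.95 for Pnpla2, -4.52 for Lipe, -1.15 for Abhd5 and -7.39 for G0s2, and the largest adjusted p among them was 1.41e-09. For G0s2 the sign was set by its entry into the fit through WT day 2 libraries, so it adds nothing to the count. The median of all tested genes was 0.06, and 73.8% of tested genes were called, with 33% of all tested genes called negative. For Mgll and Adrb3, in the fit without the filter, it was -1.05 (adjusted p = 9.88e-06) and -0.22 (adjusted p = 0.00659), where 36.8% of genes were called.

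**Figure D2:**
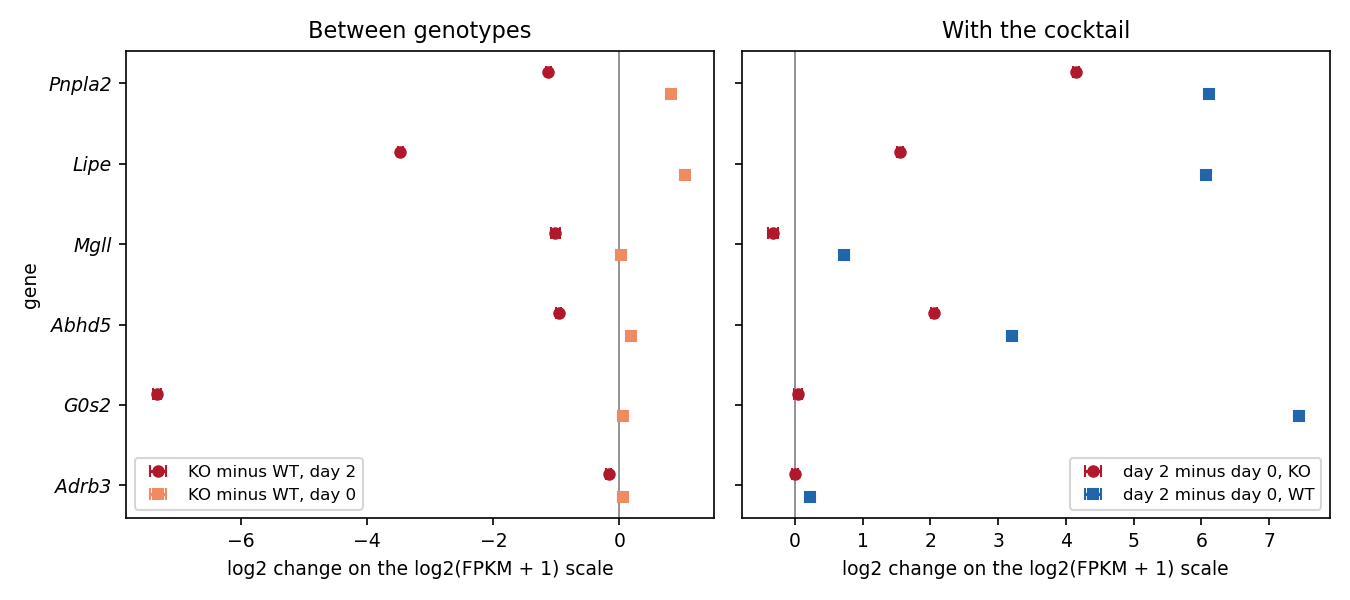
Fitted log2 changes of the 6 genes on the log2(FPKM + 1) scale, KO minus WT at each day on the left and day 2 minus day 0 in each genotype on the right, with bars of 1 SE that are mostly hidden by the points. Pnpla2, Lipe and Abhd5 lie right of 0 at day 0 and left of it at day 2, and every response to the cocktail is further right in WT than in KO cells. Mgll and Adrb3 are from the fit without a filter on low values.

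Because FPKM is per gene length, the members can also be set against each other within a library. Lipe stood at 7.08% of Pnpla2 in KO day 2 libraries, against 37.0% in WT day 2 libraries, and at 42.0% in KO day 0 libraries, against 33.2% in WT day 0 libraries. In WT cells the ratio at day 2 was thus close to that at day 0, while in KO cells day 2 was far below day 0. Abhd5 stood at 36.3% of Pnpla2 in KO and 32.4% in WT cells at day 2, and at 159% in KO and 255% in WT cells at day 0. The co-activator message outnumbered that of its lipase before induction and not after it, in both genotypes.

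G0s2 stood at 0.0262% of Pnpla2 in KO day 2 libraries, against 19.5% in WT day 2 libraries, and at 0.332% in KO and 0.295% in WT cells at day 0, where it rests on 0 to 2 reads a library. In WT day 2 libraries the share of G0s2 was 19.2% to 19.7%. Lipe, at 36.3% to 37.4%, and Abhd5, at 31.9% to 32.9%, kept a similarly even share of Pnpla2 there. Each of these messages varied little between the WT day 2 libraries, so the even share of G0s2 shows no particular tie to Pnpla2. These are levels of message, and no protein or lipase activity was measured in these libraries.

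**Figure D3:**
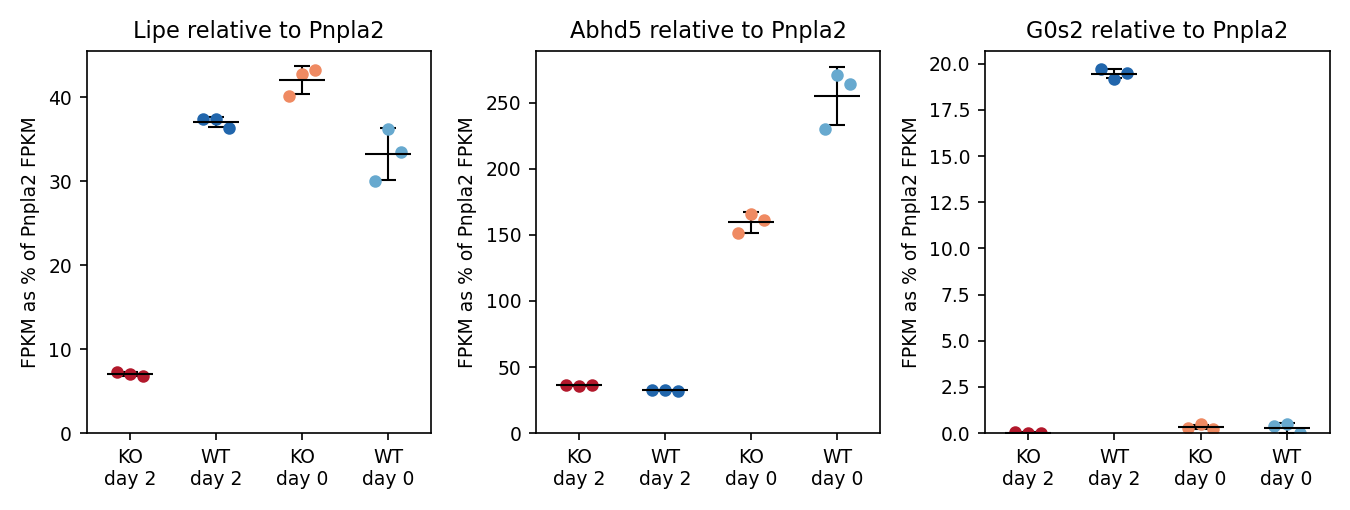
FPKM of Lipe, Abhd5 and G0s2 as a percentage of Pnpla2 FPKM in each library, with KO and WT cells at day 2 and KO and WT cells at day 0. Points are libraries, with the mean and SD (n = 3). Lipe is low in KO day 2 libraries alone (7.08%), Abhd5 is lower at day 2 than at day 0 in both genotypes, and G0s2 is off the floor in WT day 2 libraries alone (19.5%).

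The genes whose pattern over the 12 libraries lay nearest to each member were found by the root mean square distance between gene-centred log2(FPKM + 1) values. For Pnpla2, which itself varied by 2.61 about its mean on this measure, they were the pyruvate carboxylase gene Pcx (0.386), the angiotensinogen gene Agt (0.465) and the haptoglobin gene Hp (0.544). Pcx had 239 FPKM in KO and 669 in WT cells at day 2, and 19.2 in KO and 14.9 in WT cells at day 0, the same crossing of genotypes between days. For Lipe (2.30 about its mean) they were Agpat2, an enzyme gene of triglyceride synthesis (0.299), the retinal reductase gene Dhrs3 (0.391) and the adipogenic factor gene Cebpa (0.438). For Abhd5 (1.36 about its mean) they were the transcriptional repressor gene Bcl6 (0.095), the kinase gene Mknk2 (0.129) and Smim5 (0.194). For G0s2 they were the resistin gene Retn (0.667), Mrap (0.724) and Cd36 (0.769), all less close for a gene that varied by 3.20. Those nearest to Mgll (Ecsit, Trak1 and Ndufa11) and Adrb3 (Epn1, Yeats2 and Zbtb6) carry little, since these members hardly varied on that scale.

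For the lists that follow, the shares over all tested genes are 40.8% called higher and 40.6% called lower in KO cells at day 2, and 38.3% called higher and 44.2% called lower at day 0, with medians of 0.00 and -0.06. Other lipases and esterases of neutral lipid did not share the day 2 pattern as a group. Of 16 tested of 18 listed, 4 were called higher and 9 lower in KO cells at day 2 (median -0.21), and 12 higher and 2 lower at day 0 (median 0.47). Lpl, the lipoprotein lipase gene that brings fatty acids into fat cells, had 273 FPKM in KO and 2418 in WT cells at day 2, and 190 in KO and 55.9 in WT cells at day 0. This is the crossing seen for Lipe and Pnpla2, with adjusted p of 1.26e-15 at day 2 and 1.53e-13 at day 0. Ces1d, a carboxylesterase gene with triglyceride hydrolase activity, crossed likewise, with 0.321 FPKM in KO and 9.08 in WT cells at day 2, and 1.03 in KO and 0.0759 in WT cells at day 0. It passed the filter through WT day 2 libraries alone and so had to be lower in KO cells at day 2. Lipa, the lysosomal acid lipase gene, went against the majority at day 2, with 37.1 FPKM in KO and 24.9 in WT cells, as did Pnpla6, Nceh1 and Ddhd1.

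Within the patatin-like family of Pnpla2, 4 of 7 genes were tested. Pnpla2 was the most abundant at day 2 in both genotypes. Pnpla8, a mitochondrial and peroxisomal phospholipase gene, had 26.5 FPKM in KO and 73.9 in WT cells at day 2, while Pnpla6, a lysophospholipase gene, had 31.7 in KO and 16.8 in WT cells. Pnpla6 was thus called higher in KO cells (adjusted p = 3.15e-09) where Pnpla2 was lower. Pnpla3, the closest relative of Pnpla2, had 0 FPKM in all KO libraries and at most 0.0871 as a group mean in WT cells. All 4 tested members of the family were called higher in KO cells at day 0, where 38.3% of all tested genes were. In the ABHD family of Abhd5, 18 of 21 genes were tested, with 7 called higher and 6 lower at day 2 (median 0.05) and 11 higher and 4 lower at day 0 (median 0.23). Abhd3, among the 6 called lower at day 2, passed the filter through WT day 2 libraries alone and so had to be lower. Abhd15, a gene needed for the restraint of lipolysis by insulin in mice, had 10.7 FPKM in KO and 45.6 in WT cells at day 2, while Abhd4 and Abhd8 had 82.0 and 47.5 FPKM in KO cells, against 31.9 and 13.7 FPKM in WT cells.

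The proteins that give lipases access to the droplet were called lower in KO cells at day 2 in 14 of 17 tested genes, with 3 higher (median -1.46), and lower in 9 with 3 higher at day 0 (median -0.19). Plin1, whose perilipin holds ABHD5 until it is phosphorylated, had 7.67 ± 0.261 FPKM in KO and 522 ± 5.88 FPKM in WT cells at day 2 (SD, n = 3 each). This 68.1-fold difference was much larger than that of Abhd5, so the Plin1 and Abhd5 messages stood in a different proportion in each genotype. Plin2, the coat gene of small droplets, had 234 FPKM in KO and 803 in WT cells, and Fabp5, a fatty acid carrier gene, 38.9 in KO and 1182 in WT cells. Plin3 was among the 3 called higher, with 43.7 FPKM in KO and 21.8 in WT cells, beside Rab18 and Faf2.

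Of 22 genes of stimulatory receptors, their Gs subunits and adenylyl cyclases, 11 were tested, with 2 called higher and 9 lower in KO cells at day 2 (median -0.58), and 5 higher and 3 lower at day 0 (median -0.06). Adrb1, another beta-adrenergic receptor gene, had group means of at most 0.0381 FPKM. The melanocortin receptor gene Mc5r had 30.9 FPKM in KO and 69.7 in WT cells at day 2, and 21.1 in KO and 0.323 in WT cells at day 0, a 65.2-fold difference before induction. Mrap, which carries the corticotropin receptor to the cell surface, had 0.29 FPKM in KO and 59.0 in WT cells at day 2, and like G0s2 it passed the filter through WT day 2 libraries alone. Mc2r, also among the 9 called lower, likewise reached the filter only with its WT day 2 libraries. Ptger4, a prostaglandin receptor gene, and the cyclase gene Adcy7 were the 2 called higher in KO cells, at 1.56 and 0.718 FPKM in KO, against 0.104 and 0.178 FPKM in WT cells.

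Of 18 genes of inhibitory receptors and Gi subunits, 7 were tested, with 5 called higher and 2 lower at day 2 (median 0.42), and 3 each way at day 0 (median 0.02). Npy1r, a Gi-coupled neuropeptide receptor gene, had 54.5 ± 0.768 FPKM in KO and 0.397 ± 0.109 in WT cells at day 2 (SD, n = 3 each), a 137-fold difference (adjusted p = 2.83e-15). Before induction it had 107 FPKM in KO and 12.5 in WT cells. Ffar2, a short-chain fatty acid receptor gene, went the other way with 0.0821 FPKM in KO and 6.63 in WT cells at day 2, and also passed the filter through WT day 2 libraries alone. Hcar2, the niacin receptor gene and a brake on lipolysis, was under the filter, with 5 reads over the KO day 2 libraries, against 314 over the WT day 2 libraries.

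The kinase and phosphodiesterase genes between receptor and lipase showed no common direction: of 18 tested of 27 listed, 8 were called higher and 8 lower at day 2 (median -0.04), and 7 higher and 10 lower at day 0 (median -0.18). Prkar2b, the main regulatory subunit gene of protein kinase A in fat cells, had 45.5 FPKM in KO and 223 in WT cells at day 2 (adjusted p = 8.69e-15). Pde3b, the phosphodiesterase gene through which insulin restrains lipolysis, had 105 FPKM in KO and 123 in WT cells at day 2, and 38.2 in KO and 21.8 in WT cells at day 0. Mapk3, the gene of a kinase that can phosphorylate hormone-sensitive lipase, was higher in KO cells at day 2, at 172 FPKM, against 61.1 in WT cells.

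The genes that handle the released fatty acids and glycerol were called lower in KO cells in 11 of 14 tested genes at day 2, with 1 higher (median -2.24), and lower in 8 with 4 higher at day 0 (median -0.51). Cd36 and Pck1, among the 11 called lower, passed the filter through WT day 2 libraries alone, which favours a lower call. Acsl1, the acyl-CoA synthetase gene that traps fatty acids inside fat cells, had 209 FPKM in KO and 2512 in WT cells at day 2. Lpin1, a phosphatidate phosphatase gene of triglyceride synthesis, had 11.5 in KO and 130 in WT cells. Agpat2, the gene nearest in pattern to Lipe, belongs to this list. Acsl5 was the member called higher, with 10.2 FPKM in KO and 4.95 in WT cells. Aqp7, the glycerol channel gene of fat cells, was under the filter, with 0.109 FPKM in KO and 1.88 in WT cells at day 2.

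**Figure D4:**
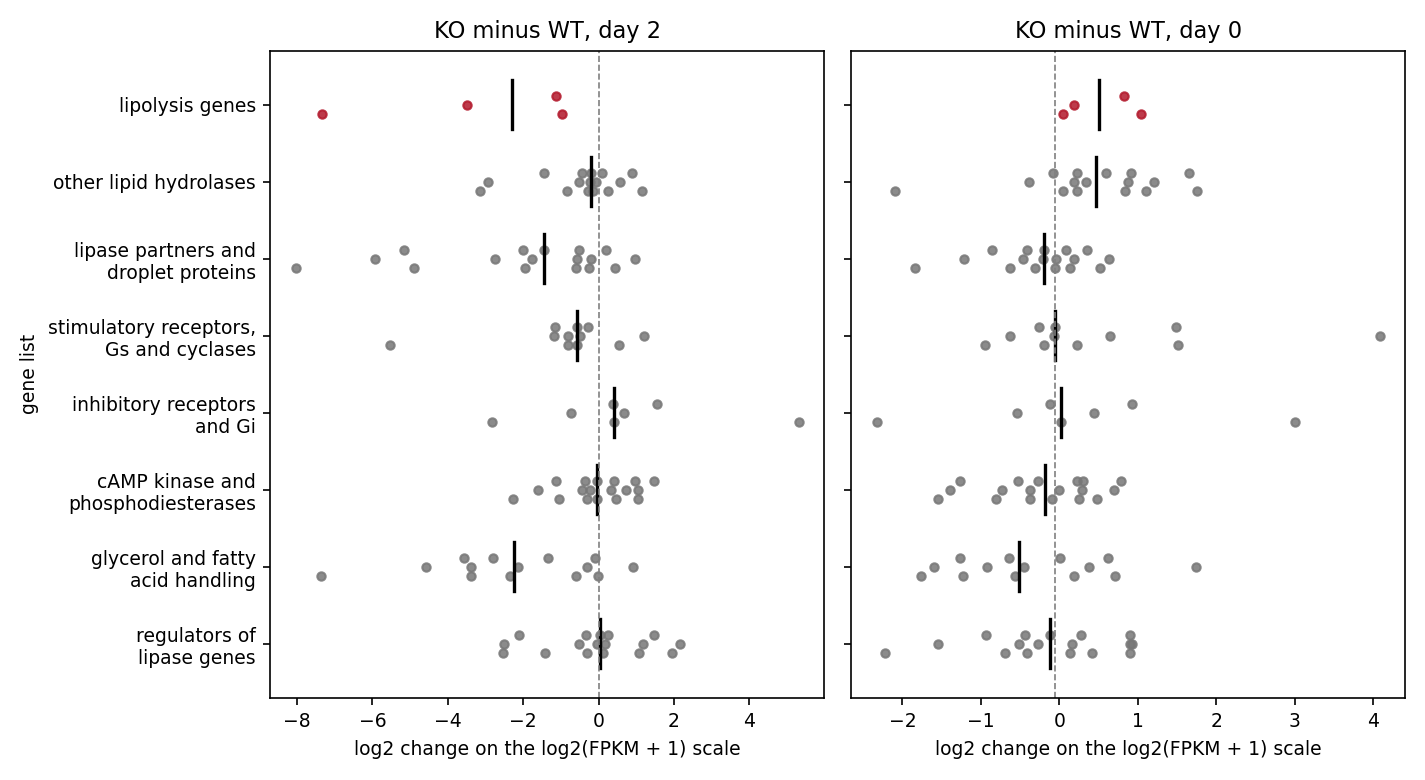
Fitted KO minus WT changes on the log2(FPKM + 1) scale for the tested genes of each list, at day 2 on the left and day 0 on the right. Each point is a gene, the vertical mark is the list's median and the dashed line the median of all tested genes. The 4 lipolysis genes in the fit lie between -7.34 and -0.96 at day 2 and between 0.05 and 1.04 at day 0.

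Regulators known to act on the lipase genes did not move in a single direction either, with 8 of 17 tested called higher and 7 lower at day 2 (median 0.05), and 7 higher and 9 lower at day 0 (median -0.12). Pparg, the master factor of fat cells that activates Pnpla2 and G0s2, had 33.7 FPKM in KO and 150 in WT cells at day 2, and 2.85 in KO and 10.2 in WT cells at day 0. Pparg was lower in KO cells at both days, while Pnpla2 and Lipe were higher in KO cells at day 0 and lower at day 2. The part of Pparg and of the other regulators named here in the lipolysis results was not tested. Cebpa had 31.1 FPKM in KO and 186 in WT cells at day 2, and 4.61 in KO and 3.63 in WT cells at day 0. Foxo3, of the FoxO factors that raise Pnpla2 when insulin is low, had 83.8 FPKM in KO and 18.0 in WT cells at day 2. Foxo1, of the same factors, went the other way and was called lower in KO cells at both days. Its fitted change was -0.34 at day 2 and -0.27 at day 0. Stat5a, a hormone-activated factor, had 188 FPKM in KO and 67.5 in WT cells at day 2. Snai1, known in mouse fat as a repressor of Pnpla2, had 55.7 FPKM in KO and 25.9 in WT cells at day 2, and 11 in KO and 55.0 in WT cells at day 0. The adipocyte markers moved with the members at day 2, with 9 of 9 tested markers called lower in KO cells (median -5.16), beside 40.6% of all tested genes. Several of these, such as Adipoq, Cfd and Slc2a4, passed the filter through WT day 2 libraries alone and so had to be lower. On the other side, 7 of 8 tested preadipocyte markers were called higher and none lower (median 2.16), beside 40.8% of all tested genes. Of these, Cd24a passed the filter through KO day 2 libraries alone and so had to be higher. At day 0, 1 of the 9 adipocyte markers was called higher in KO cells (Lpl) and none lower. Their part in the lipolysis results was not tested.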

How the data were processed

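The authors' deposited table holds FPKM (reads relative to both gene length and library depth) for 52505 genes in 12 libraries. The submitters' processing notes name build mm10 and, with no roles, TopHat2 2.0.12, Bowtie2 2.2.3, MACS2 2.1.0, BWA 0.7.12, HTSeq 0.6.1, FastQC and CASAVA. Neither annotation nor strand setting is given in the sources used here. Columns were matched to samples by name. The values gave whole reads for 30916 of 30916 genes above 0 (100.0%, tolerance 0.001 read). The table's identifiers had a symbol for 51633 genes.

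Changes were fitted with limma 3.58.1 in R 4.3.3 on log2(FPKM + 1) for 12961 genes (mean over all libraries 1 FPKM or more), with 4 group means, 8 residual degrees of freedom and the prior variance following mean level. Tests were 2-sided and adjusted by Benjamini-Hochberg within each comparison, with a threshold of 0.05. Mgll and Adrb3, under the filter, were taken from the same fit over all 30916 genes, and voom was run on recovered reads. Fold changes are ratios of mean FPKM. Read ratios have exact conditional 95% intervals, which cover counting error only. The fit was also run on simulated data in which few genes changed. Most tested genes were called in the real data, so that run does not match their setting, and no result here rests on it. Libraries of a group differed by 1.39 to 2.18 times counting noise in median chi-square, so no library was a copy of another.

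The members and the 15 gene lists beside them were chosen with earlier results of these data known. Genes named were drawn from up to 4 tested genes of smallest adjusted p at day 2 in each list, up to 2 in the other comparisons, and those going against the majority of calls. Not every gene that qualified is named. Some, such as Pck1, are named only to mark how they passed the filter. Others named, Adrb1, Pnpla3, Hcar2 and Aqp7, were chosen for their known role after their values were seen. Alternatives were other pseudocounts, filters, scalings, tests, a replicate block and leaving out each library. Gyk, an older symbol beside Gk in a list, is not in the table.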

Additional observations from a re-analysis of the deposited data

Results flagged for a closer look

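The response to the cocktail differed between KO and WT cells for each lipolysis gene, by the interaction of genotype and day in the limma fit. Its value, the day 2 minus day 0 change in KO minus that in WT cells on the log2(FPKM + 1) scale, was -1.95 for Pnpla2 (SE 0.06), -4.52 for Lipe (SE 0.05), -1.15 for Abhd5 (SE 0.05) and -7.39 for G0s2 (SE 0.08). In the fit without a filter on low values it was -1.05 for Mgll (SE 0.10) and -0.22 for Adrb3 (SE 0.05), the last on no more than 7 reads in any library. G0s2 entered the filtered fit through its WT day 2 libraries alone, which set its sign. All 6 passed the adjusted threshold of 0.05, where 73.8% of all tested genes did in the filtered fit and 36.8% without the filter.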

How the results depend on the processing

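All 440 recounts of called genes stayed within 1.5 times the reported count. Of 640 refits of the members' changes, 628 kept direction and side of the threshold, and the rest concern values near 0 or resting on few reads. For Mgll, KO against WT at day 0 (0.03) was -0.0678 after quantile normalization and -0.0441 to 0.0818 with a library left out, the lowest without KO day 0 replicate 2, which holds 17 of its 34 KO day 0 reads. For Adrb3, KO against WT at day 0 (0.05) passed the threshold with only the libraries compared (0.0495, adjusted p = 0.000263) and with voom on reads (1.65, adjusted p = 0.0219), on 3 reads against none, and at day 2 (-0.17) it missed it with only the libraries compared (-0.17, adjusted p = 0.0531). In KO cells, day 2 against day 0, G0s2 (0.05) was -0.0405 after quantile normalization. Adrb3 (0.00) was -0.0255 with a pseudocount of 0.1, -0.0012 with TPM scaling and -0.28 with voom. Leaving out a library gave -0.0254 to 0.0259 for it. A minimum mean of 5 FPKM leaves no value for Mgll or Adrb3. Another scaling moved the median change of all genes by at most 0.094, except quantile normalization in the WT response, where it moved by 0.124 and every member in the fit kept its call. The cause of these shifts was not tested.

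Same-numbered libraries of different groups deviated together with correlations of -0.055 to 0.087 over 18 pairs, and 6 of 12 libraries correlated best with their own number, so the numbers are not shown to pair them. With a replicate block no member's call changed: the interaction was -1.95 for Pnpla2 and -4.52 for Lipe, and 9486 genes were called for it.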
